A study of Homo sapiens with 8 samples.

Results

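The humanin-like MTRNR2L genes are copies of the mitochondrial 16S ribosomal RNA gene, MT-RNR2, that lie in the nuclear genome. The 7 genes described here are MTRNR2L1, MTRNR2L2, MTRNR2L3, MTRNR2L6, MTRNR2L8, MTRNR2L9 and MTRNR2L10, of 12700 genes listed for 143B and 12810 for HOS. They were chosen from the measured values, for their deep falls in the HOS libraries labelled sgNAT10, so those falls are a description and carry no test. Polyadenylated RNA was sequenced from 143B and HOS, established human osteosarcoma lines, of which 143B was derived from HOS. Each line had 2 control libraries (NC) and 2 labelled sgNAT10, for a guide RNA against the RNA acetyltransferase NAT10. The design text calls the latter knockout cells. The labels give no time point and leave unsaid whether cells were clones or pools and whether a group held separate cultures, so the p-values reflect only a spread between libraries that may be technical.

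Humanin is a peptide of 24 residues whose reading frame lies inside MT-RNR2, and it is known for protecting cells against apoptosis. It binds BAX and IGFBP3 inside and outside the cell, and signals through FPR2 and through a receptor made of CNTFR, IL27RA and IL6ST. Segments of mitochondrial DNA have entered the nuclear genome many times, and the MTRNR2L loci are such insertions that kept a humanin-like reading frame. Human mitochondrial ribosomal RNA carries short adenosine tails.

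NAT10 read 16.1 and 19.9 FPKM in the 143B NC libraries, against 9.05 and 7.19 FPKM under the label. In HOS it read 14.9 and 16.2 FPKM in the NC libraries, against 21.1 and 19.1 FPKM under the label. NAT10 RNA was thus not lower in the HOS libraries carrying the label, and HOS directions below compare libraries as labelled only. FPKM are fragments scaled to transcript length and library size, summed here to between 484800 and 798100 over the listed genes of a library, with read depth unknown. The median change over all tested genes was -0.25 in 143B and 0.19 in HOS on the log2(FPKM + 1) scale. Under median-ratio scaling it was -0.02 and -0.01. Of 8 osteosarcoma and mesenchymal markers, 6 were listed in 143B, mostly vimentin (VIM), at a summed 1395 to 1821 FPKM per NC library and 501.7 to 792.8 under the label, and 7 in HOS, at 1385 to 1578 and 1736 to 1798 FPKM. Of 18 markers of blood, endothelial, epithelial, fat and neural cells, 6 were listed in 143B, mostly CD68, at a summed 108.2 to 130.0 FPKM per NC library and 51.1 to 54.5 under the label, and 7 in HOS, at 36.1 to 39.1 and 43.6 to 46.0 FPKM. Their part in the results was not tested.

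The sequences of the humanin-like reading frames show how closely the nuclear copies follow the mitochondrial one. Each is given 5′ to 3′ over 75 bases, 24 codons and the triplet that ends the mitochondrial frame, in lower case, with capitals for bases that differ from MT-RNR2. They are GENCODE release 29 transcript sequences on GRCh38.
MT-RNR2, chrM:2633-2707, plus strand: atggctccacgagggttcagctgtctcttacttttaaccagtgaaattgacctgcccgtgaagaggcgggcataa
MTRNR2L1, chr17:22524062-22524136, plus strand: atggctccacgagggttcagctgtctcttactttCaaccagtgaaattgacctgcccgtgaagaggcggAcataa
MTRNR2L8, chr11:10508152-10508226, minus strand: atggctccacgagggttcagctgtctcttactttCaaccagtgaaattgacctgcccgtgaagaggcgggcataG
MTRNR2L9, chr6:61574328-61574402, plus strand: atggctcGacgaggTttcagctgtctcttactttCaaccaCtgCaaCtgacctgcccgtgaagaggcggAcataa
MTRNR2L2, chr5:80650012-80650086, minus strand: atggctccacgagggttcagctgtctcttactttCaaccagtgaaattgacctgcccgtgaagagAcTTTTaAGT
MTRNR2L3, chr20:57358965-57359039, minus strand: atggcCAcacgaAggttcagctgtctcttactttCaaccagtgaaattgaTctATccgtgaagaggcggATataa
MTRNR2L6, chr7:142667231-142667305, plus strand: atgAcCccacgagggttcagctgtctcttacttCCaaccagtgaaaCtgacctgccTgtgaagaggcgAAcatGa
MTRNR2L10, chrX:55181920-55181994, minus strand: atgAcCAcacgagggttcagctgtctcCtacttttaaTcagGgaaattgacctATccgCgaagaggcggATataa

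All of these frames open with atg, and they differ from MT-RNR2 at 2 bases in MTRNR2L1 and MTRNR2L8, 7 in MTRNR2L9, 9 in MTRNR2L2, MTRNR2L3 and MTRNR2L6, and 11 in MTRNR2L10. The closest pair was MTRNR2L1 and MTRNR2L8, with 2 differences. The most distant was MTRNR2L2 and MTRNR2L10, with 17. These counts go position by position, without gaps. MTRNR2L2 aligns to MT-RNR2 over 65 bases with 1 mismatch, or 98.5% identity, and its other differences lie past that stretch. Its 75 bases end in agt and hold no stop in frame. MTRNR2L2 is identical to MTRNR2L1 and to MTRNR2L8 over an aligned stretch of 65 bases. GENCODE annotates MTRNR2L2 and MTRNR2L9 as processed pseudogenes of 87 and 75 bases and the other members as protein coding. The gene models behind the counting were not given in the sources used here. The length behind each FPKM is unknown.

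Identity over the whole transcript was lower than over the reading frame for each of the 5 members with a long transcript, though single windows elsewhere were as high or higher. Aligned to the 1559 bases of MT-RNR2, the annotated transcript of MTRNR2L8 (1303 bases) was 93.1% identical, MTRNR2L1 (1553 bases) 88.6%, MTRNR2L6 (1447 bases) 85.3%, MTRNR2L10 (1530 bases) 81.2% and MTRNR2L3 (1539 bases) 79.5%. Of the 30-base windows of MTRNR2L8, 293 of 1274 occur unchanged in MT-RNR2, or 23.0%. The share was 6.82% for MTRNR2L1, 4.87% for MTRNR2L6, 3.73% for MTRNR2L10 and 1.46% for MTRNR2L3. Over its short annotated length MTRNR2L2 had 6 of 58 such windows, or 10.3%, and MTRNR2L9 0 of 46. A read confined to such a window would match both sequences. The highest identity of a 100-base window of the 5 longer members, taken in steps of 10 bases, was 98%. How reads were assigned between such sequences was not tested. Some copies also share 30-base windows with each other, up to 89 between MTRNR2L1 and MTRNR2L8 and 87 between MTRNR2L3 and MTRNR2L10, while MTRNR2L9 shares 0 with any other member. Mitochondrially encoded genes were not analysed here, so the part of 16S ribosomal RNA in these values was not tested.

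**Figure D1:**
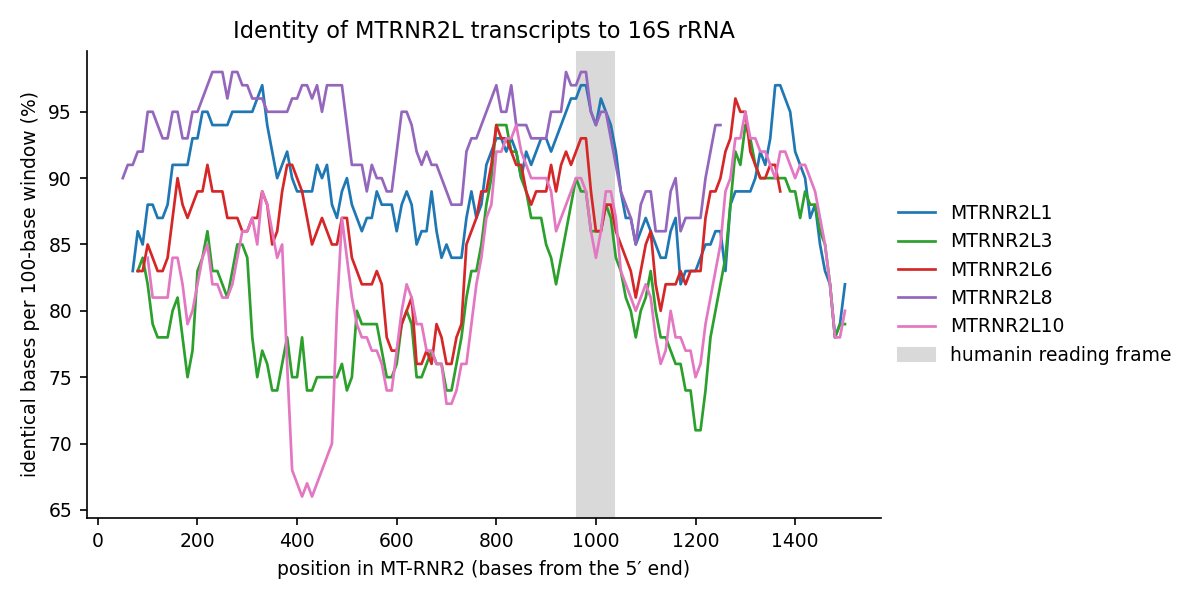
Percent of identical bases in 100-base windows along MT-RNR2 (x axis, bases from its 5′ end) for the 5 members with a transcript longer than a window; the grey band is the humanin reading frame. MTRNR2L8 lies highest over most of the molecule, between 85% and 98%, and MTRNR2L10 has the lowest window, at 66%.

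By location, the copies are scattered over 7 chromosomes. MTRNR2L2 (chr5:80650000-80650086) lies on the minus strand. MTRNR2L3 (chr20:57358442-57359980) lies in an intron of the mRNA export factor RAE1, on the opposite strand. MTRNR2L8 (chr11:10507887-10509189) holds the microRNA gene MIR4485 within its exon. The exon of MTRNR2L1 (chr17:22523111-22524663) overlaps an antisense gene, AC132825.2. GENCODE annotates no other gene over MTRNR2L6 (chr7:142666272-142667718), MTRNR2L9 (chr6:61574328-61574402) or MTRNR2L10 (chrX:55181391-55182920).

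In control cells the members covered a wide range of levels per unit length and had the same order in both lines. In HOS controls, MTRNR2L2 averaged 4634 FPKM, followed by MTRNR2L8 (2472), MTRNR2L9 (1304), MTRNR2L1 (1168), MTRNR2L10 (432.5), MTRNR2L6 (131) and MTRNR2L3 (10.5). No neighbours in that order overlapped between libraries, and MTRNR2L2 ranked 5 among all listed genes in both HOS control libraries. In 143B controls the order was MTRNR2L2 (1504), MTRNR2L8 (812), MTRNR2L9 (477), MTRNR2L1 (419), MTRNR2L10 (179), MTRNR2L6 (47.5) and MTRNR2L3 (3.98). There only MTRNR2L9 and MTRNR2L1 overlapped. Among the 5 members with long annotated transcripts, MTRNR2L8 and MTRNR2L1 were the most identical to MT-RNR2 and the highest, and MTRNR2L3 was the least identical and the lowest in both lines. MTRNR2L6 and MTRNR2L10 stood in the opposite order of level and identity.

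The make-up of the family in FPKM, which depends on the unknown lengths, was alike in the controls of the lines. MTRNR2L2 gave 43.3% ± 3.12 (SD, n = 2) of the 7 genes' summed FPKM in 143B controls and 45.6% ± 1.54 in HOS controls. MTRNR2L8 gave 23.6% ± 0.150 and 24.4% ± 0.135, MTRNR2L9 13.9% ± 0.272 and 12.9% ± 0.767, and MTRNR2L1 12.3% ± 1.3 and 11.5% ± 0.201. MTRNR2L10 gave 5.39% ± 1.32 and 4.27% ± 0.327, MTRNR2L6 1.42% ± 0.338 and 1.29% ± 0.0992, and MTRNR2L3 0.121% ± 0.0447 and 0.104% ± 0.0138. The tables of the lines were made separately, so levels across them were not tested.

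**Figure D2:**
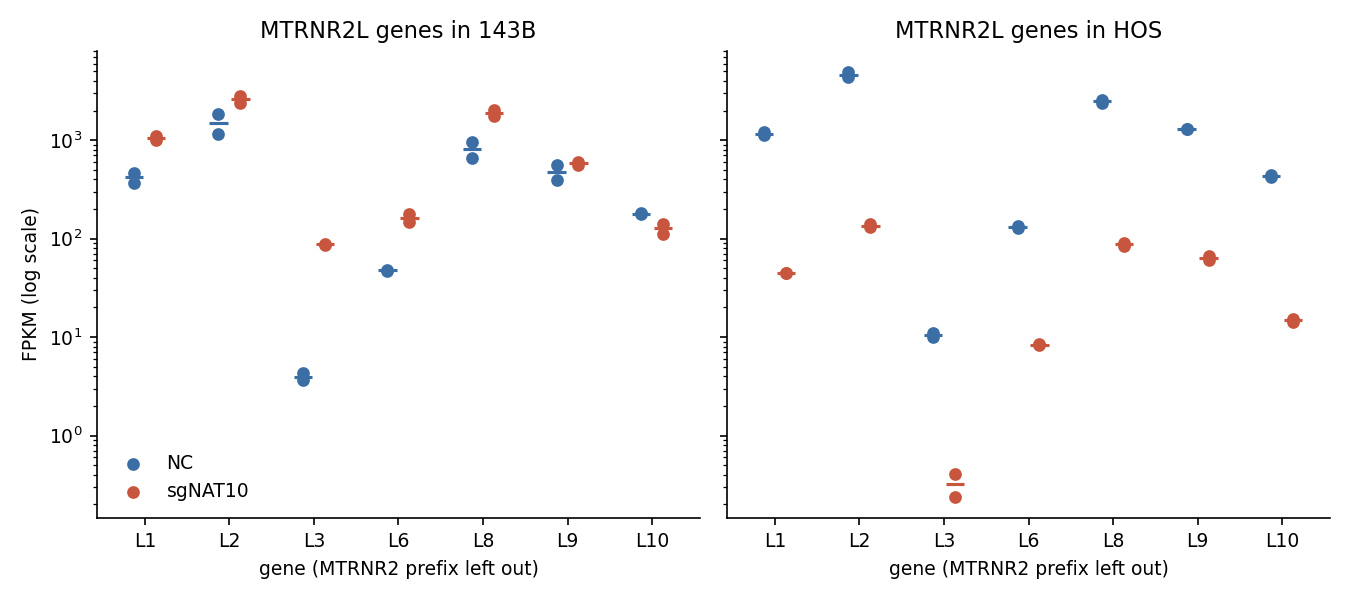
FPKM of each MTRNR2L gene (log axis) in every library of 143B (left) and HOS (right); points are libraries, short lines are means of 2, blue is NC and red is sgNAT10. In HOS the red points lie far below the blue ones for all 7 genes, whereas in 143B they lie above for 6 and below for MTRNR2L10.

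In 143B, 4 of the 7 genes rose under the sgNAT10 label, 0 fell and 3 did not pass the test (limma on log2(FPKM + 1), Benjamini-Hochberg adjusted p below 0.05). Over all 11419 tested genes, 12.9% were called higher and 25.4% lower, and 38.3% were called in either direction. Under median-ratio scaling 2361 genes were higher and 2541 lower, beside 1473 and 2897. Both labelled libraries lay above both controls for 6 members and below them for 1, beside 23.9% and 42.8% of all tested genes. The 143B libraries played no part in choosing the members, but results of this line were known when the genes were proposed. The median over the 7 genes was 1.25, beside -0.25 over all tested genes.

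MTRNR2L3, the lowest member in controls, showed the largest rise of the family. It read 4.29 and 3.67 FPKM in the 143B NC libraries, against 86.9 and 87.7 FPKM under the label. The groups lay far apart, the lowest labelled library being 20.3-fold above the highest control. The log2 change was 4.15 (SE 0.27, limma adjusted p = 0.00039), which ranked 2 from the top among tested genes. In its order of expression among all listed genes, MTRNR2L3 moved from between 6686 and 8328 in controls to between 968 and 1008.

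MTRNR2L6 read 46.6 and 48.4 FPKM in the 143B NC libraries, against 177 and 149 FPKM under the label. The groups did not overlap, and the log2 change was 1.75 (SE 0.24, limma adjusted p = 0.0017). MTRNR2L1 read 372 and 467 FPKM in the NC libraries, against 1093 and 1015 FPKM under the label. Its libraries were also apart, with a log2 change of 1.34 (SE 0.27, limma adjusted p = 0.0062). The calls of MTRNR2L1, MTRNR2L3 and MTRNR2L6 held in all 16 alternative settings run for 143B.

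MTRNR2L8, the copy closest to MT-RNR2 among the members with long transcripts, read 657 and 967 FPKM in the 143B NC libraries, against 2027 and 1768 FPKM under the label. The groups did not overlap, and the log2 change was 1.25 (SE 0.32, limma adjusted p = 0.015). The call was lost without sgNAT10 replicate 1 (log2 1.15, limma adjusted p = 0.14) and without sgNAT10 replicate 2 (log2 1.35, limma adjusted p = 0.084).

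MTRNR2L2, the copy with the highest FPKM, did not pass the test in 143B. It read 1151 and 1858 FPKM in the NC libraries, against 2825 and 2397 FPKM under the label, so that both labelled libraries lay above both controls. The log2 value was 0.83 (SE 0.35, limma adjusted p = 0.092). The controls themselves differed widely, and without NC replicate 2, the higher of them, the value was 1.18 (limma adjusted p = 0.0057). It also passed with the replicate block (limma adjusted p = 0.00024) and with the spread shared by all 8 libraries (0.014).

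MTRNR2L9 read 394 and 559 FPKM in the 143B NC libraries, against 598 and 565.5 FPKM under the label, with a log2 value of 0.31 (SE 0.28, limma adjusted p = 0.42). Its groups nearly touched, the lowest labelled library being 1.01-fold above the highest control, and the value was -0.03 to 0.59 over the alternatives. MTRNR2L10 was the member on the other side of zero. It read 177 and 182 FPKM in the NC libraries, against 141 and 113 FPKM under the label, both labelled libraries below both controls. Its log2 value was -0.51 (SE 0.24, limma adjusted p = 0.13), and with libraries rescaled to a common sum it was called lower (log2 -0.84, limma adjusted p = 0.020).

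The balance between the copies shifted within 143B. MTRNR2L3 went from 0.121% ± 0.0447 (SD, n = 2) of the family's FPKM in controls to 1.34% ± 0.133 under the label, and MTRNR2L10 from 5.39% ± 1.32 to 1.94% ± 0.129. The ratio of MTRNR2L3 to MTRNR2L10, which share more 30-base windows with each other than MTRNR2L3 does with any other member, was 0.0242 and 0.0202 in the controls and 0.617 and 0.779 under the label. MTRNR2L9 went from 13.9% ± 0.272 to 8.94% ± 0.473, while MTRNR2L8 went from 23.6% ± 0.150 to 29.1% ± 0.117. The ratio of MTRNR2L8 to MTRNR2L1 stayed between 1.74 and 2.07 in all 4 libraries, and its groups overlapped.

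**Figure D3:**
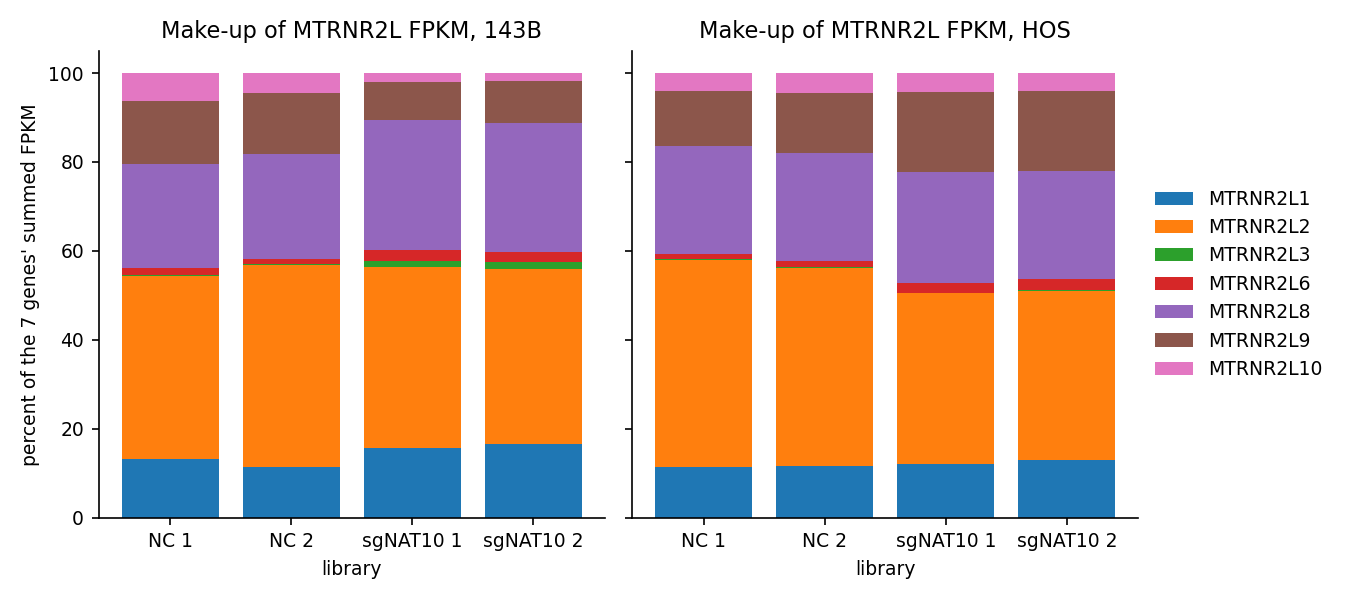
Share of each MTRNR2L gene in the summed FPKM of the 7 (y axis, percent), with a stacked bar for each library of 143B (left) and HOS (right). MTRNR2L2 is the largest segment everywhere, at 38.1% to 46.7%, and MTRNR2L10 narrows from 6.32% and 4.45% to 2.03% and 1.85% in 143B.

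In HOS the 7 chosen genes were lower under the sgNAT10 label, in the contrast that chose them. Among all 11957 tested genes, 23.0% were called lower, 45.5% higher and 68.5% in either direction, and both labelled libraries lay below both controls in 29.2% and above them in 53.9%. Under median-ratio scaling 3762 genes were higher and 4038 lower, beside 5444 and 2751. All 7 members lay that way, with falls between 15.7-fold and 34.1-fold in mean FPKM. The median of the 7 was -4.68 on the log2(FPKM + 1) scale, beside 0.19 over all tested genes. The shallowest member change, MTRNR2L3 at -3.12, stood next to that of ACTA2, smooth muscle actin, at -3.21, and beyond it came CFI at -2.13.

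MTRNR2L2 read 4925 and 4343 FPKM in the HOS NC libraries, against 141 and 131 FPKM under the label. It had the deepest fall, 34.1-fold in mean FPKM (log2 -5.08), and dropped in rank among all listed genes from 5 to between 504 and 578. MTRNR2L8 read 2558 and 2385 FPKM in NC libraries, against 91.2 and 83.6 FPKM under the label, a 28.3-fold fall (log2 -4.81). MTRNR2L1 stood at 1199 and 1137 FPKM and then at 44.4 and 44.6 FPKM, a 26.2-fold fall (log2 -4.68). For all of them the labelled libraries lay far below both controls.

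MTRNR2L9 read 1300 and 1308 FPKM in the HOS NC libraries, against 66.5 and 61.1 FPKM under the label, a 20.4-fold fall (log2 -4.33). MTRNR2L10 stood at 426 and 439 FPKM and then at 15.4 and 14.2 FPKM, a 29.3-fold fall (log2 -4.78). MTRNR2L6 had the smallest fall as a ratio, 15.7-fold, from 129 and 133 FPKM to 8.24 and 8.43 FPKM (log2 -3.82). For each of these genes the libraries of a group lay close together and the groups were far apart. MTRNR2L3 read 9.92 and 11.1 FPKM in the NC libraries, against 0.24 and 0.41 FPKM under the label, a 32.3-fold fall. Its log2 change of -3.12 understates this, since the pseudocount of 1 exceeds its labelled values, and the log2 change was -4.67 with a pseudocount of 0.1 and -1.54 with a pseudocount of 5.

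The make-up of the family also moved in HOS, in a pattern that differed from that in 143B for some members only. MTRNR2L9 went from 12.9% ± 0.767 (SD, n = 2) to 17.96% ± 0.188 of the family's FPKM, opposite to its direction in 143B. MTRNR2L2 went from 45.6% ± 1.54 to 38.3% ± 0.296 in HOS and from 43.3% ± 3.12 to 39.99% ± 0.941 in 143B. MTRNR2L1 went from 11.5% ± 0.201 to 12.55% ± 0.667 in HOS and from 12.3% ± 1.3 to 16.2% ± 0.651 in 143B. MTRNR2L6 went from 1.29% ± 0.0992 to 2.35% ± 0.152 in HOS and from 1.42% ± 0.338 to 2.50% ± 0.0698 in 143B. MTRNR2L10 stood at 4.27% ± 0.327 and 4.16% ± 0.0491 in HOS, where its groups overlapped. The ratio of MTRNR2L3 to MTRNR2L10 in HOS was 0.0233 and 0.0252 in the controls and 0.0156 and 0.0290 under the label, also overlapping.

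**Figure D4:**
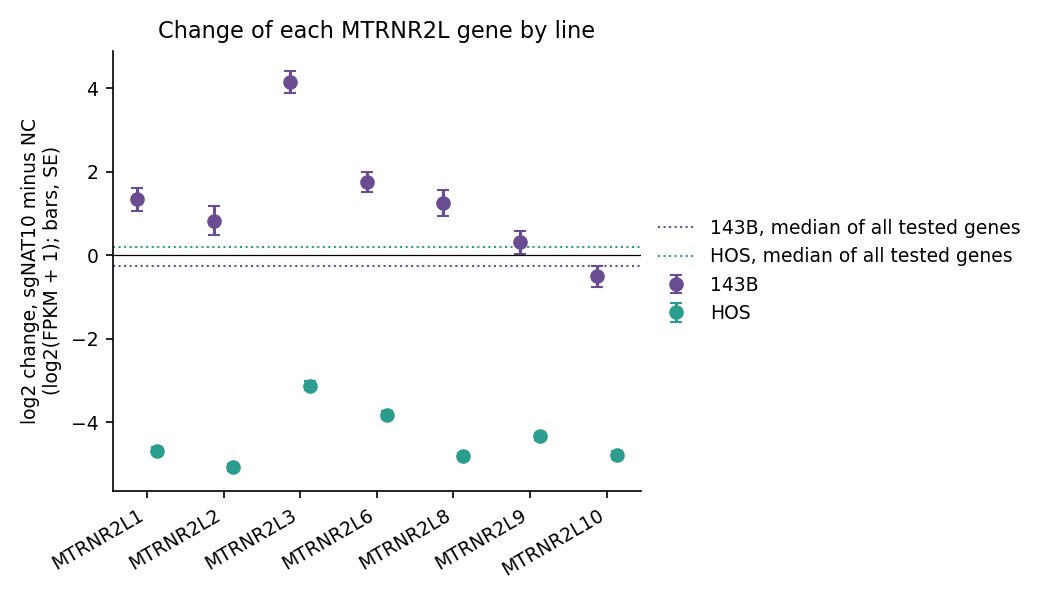
Log2 change (sgNAT10 minus NC, on log2(FPKM + 1); bars are SE, n = 2 libraries a group) of each MTRNR2L gene in 143B (purple) and HOS (green), with dotted lines at the median of all tested genes. HOS changes lie between -5.08 and -3.12, and 143B changes spread from -0.51 for MTRNR2L10 to 4.15 for MTRNR2L3.

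As a share of the summed FPKM of a library, the 7 genes took 0.429% and 0.687% in the 143B controls and 0.871% and 0.786% in the 143B libraries labelled sgNAT10. In HOS they took 1.88% and 1.70% in the controls and 0.0757% and 0.0694% under the label. The mean share was thus 1.49-fold higher under the label in 143B and 24.7-fold lower in HOS. Without cytosolic ribosomal protein genes, whose share of the sum also differs between the groups, the ratio was 1.87-fold in 143B and 27.2-fold in HOS. In 143B it was 1.21-fold without NC replicate 1 and 1.93-fold without NC replicate 2.

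Another 2 copies were listed at low levels and are no members. MTRNR2L4 read 0.98 and 1 FPKM in the 143B NC libraries, against 3.85 and 4.52 FPKM under the label, and in HOS at 1.31 and 1.21 and then at 0.33 and 0.19 FPKM. Its groups thus lay apart in opposite directions in the lines, as those of 6 members did. MTRNR2L5, listed for 143B, stood at 0.19 and 0.26 FPKM in controls and at 1.04 and 1.27 FPKM under the label.

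The choice of genes by their HOS falls sets most of the likeness between members, which is given as a description. After centring log2(FPKM + 1) within each line, the Pearson correlation with MTRNR2L2 was 0.996 for MTRNR2L8, 0.995 for MTRNR2L9, 0.992 for MTRNR2L1, 0.96 for MTRNR2L6 and MTRNR2L10, and 0.714 for MTRNR2L3. These 8 points share libraries, and the correlation was high even for MTRNR2L10, which lay on the other side of zero from MTRNR2L2 in 143B. Among 10648 other genes, those most like the mean profile of the members were SUPT4H1, a transcription elongation factor (r = 0.995), IFT22 (0.988), UFD1 (0.983), the superoxide dismutase SOD1 (0.979) and STX8 (0.979). Their changes were far smaller, between -0.99 for IFT22 and -0.50 for SUPT4H1 in HOS, and between 0.08 for SOD1 and 0.40 for IFT22 in 143B. None of these genes passed the test in 143B (limma adjusted p from 0.27 for STX8 to 0.81 for SOD1).

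The listed genes nearest to the insertions are described by their own values. That they changed less in HOS than the members was largely fixed beforehand, since the members were chosen for deep falls there. For each member, listed genes next to or over it were taken, 15 in each line, at distances of up to 4769 kb. In HOS 7 of the 15 rose and 5 fell, with log2 changes from -0.79 for FAM104B to 0.89 for AMPD3, by the same limma test, beside 45.5% and 23.0% of all tested genes. FAM151B, among those that fell, passed the filter on low values through its controls alone. With the spread shared by all 8 libraries, 3 rose and 0 fell, and FAM104B no longer passed (limma adjusted p = 0.073). RAE1, which holds MTRNR2L3, rose in HOS from 53.4 and 56.95 FPKM to 74.0 and 77.7 FPKM (log2 0.45, limma adjusted p = 0.00025; 0.11 with the shared spread). AMPD3 and RNF141, which flank MTRNR2L8 at distances of 0.308 and 2.49 kb, rose (log2 0.89) and fell (log2 -0.34). The fall of RNF141 was lost without sgNAT10 replicate 1 (limma adjusted p = 0.22) and on a common sum (0.25). Also lost without sgNAT10 replicate 1 were a rise of GSTK1 and a fall of MAGEH1, and 3 genes then fell. The fall of FAM151B was lost without NC replicate 1 (limma adjusted p = 0.11).

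In 143B, 3 of the 15 neighbours rose and 5 fell, with log2 changes from -1.57 for RAE1 to 1.56 for PTP4A1, beside 12.9% and 25.4% of all tested genes. FAM151B, among those that rose, passed the filter on low values through its labelled libraries alone. RAE1 fell from 55.4 and 74.97 FPKM to 20.7 and 21.6 FPKM (limma adjusted p = 0.0032), while MTRNR2L3 in its intron rose. RBM38, an RNA-binding protein on the other side of MTRNR2L3, fell as well (log2 -1.46, limma adjusted p = 0.0031). AMPD3 fell (log2 -1.32, limma adjusted p = 0.0097; 0.10 without sgNAT10 replicate 1), having passed the filter on low values through its controls alone, whereas MTRNR2L8 next to it rose. Over the neighbours, 2 rose and 2 fell without sgNAT10 replicate 1, 0 and 3 without sgNAT10 replicate 2, 2 and 5 without NC replicate 1, and 5 and 4 without NC replicate 2. On a common sum 1 rose and 5 fell, and under median-ratio scaling 7 rose and 4 fell.

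**Figure D5:**
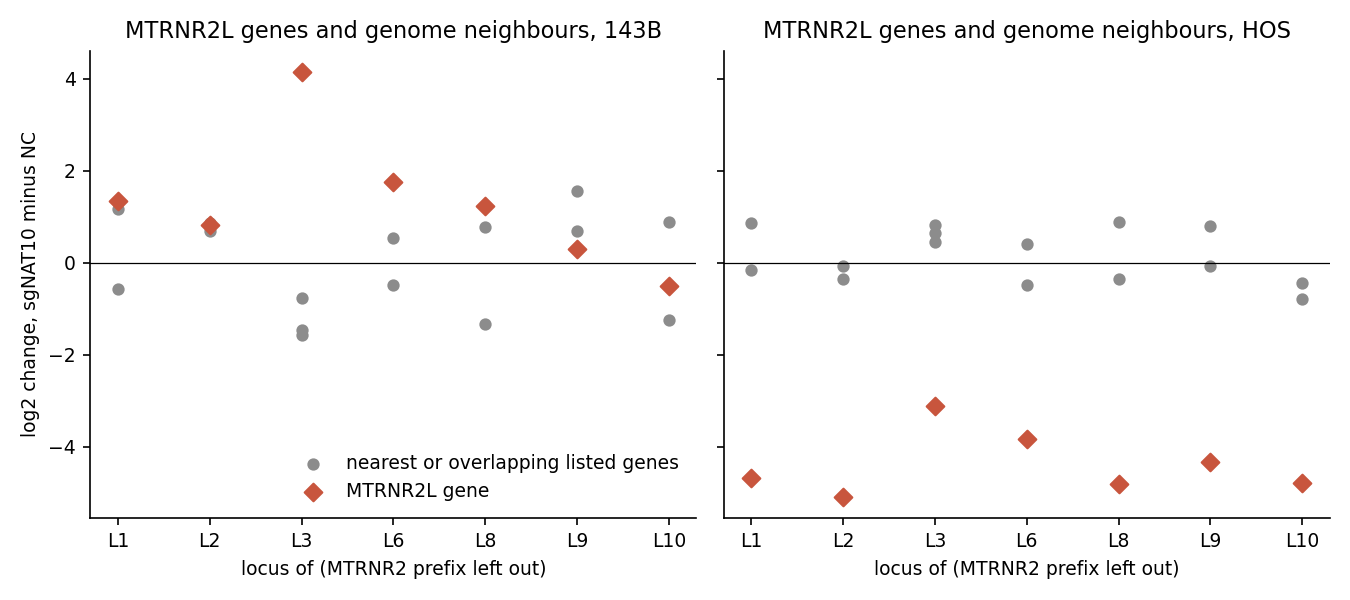
Log2 change (y axis, sgNAT10 minus NC) of each MTRNR2L gene (red diamonds) and of the listed genes next to or over it in the genome (grey points), in 143B (left) and HOS (right). In HOS the grey points lie between -0.79 and 0.89, far above the diamonds, which were chosen for deep falls there. In 143B the gene furthest from its neighbours is MTRNR2L3.

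Gene lists were taken for mitochondrial RNA synthesis and processing, ribosomal RNA modification and ribosome assembly, humanin receptors and partners, mitochondrial mass and biogenesis, and mitophagy. Across 5 lists, 7 of 103 tested genes rose and 19 fell in 143B, and 32 of 101 rose and 35 fell in HOS. The shares are to be read beside the 12.9% and 25.4% of all tested genes in 143B and the 45.5% and 23.0% in HOS. List medians below are to be read beside -0.25 in 143B and 0.19 in HOS over all tested genes. The split depended on scaling, with 17 higher and 16 lower under median-ratio scaling in 143B, 22 and 18 under quantile normalization and 4 and 28 on a common sum. In HOS it was 51 and 19 on a common sum and 24 and 50 under median-ratio scaling. In 143B, 4 rose and 8 fell without sgNAT10 replicate 1, 3 and 9 without sgNAT10 replicate 2, and 14 and 20 without NC replicate 2.

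For mitochondrial RNA synthesis and processing, 2 of 30 genes rose and 5 fell in 143B (median 0.14) and 6 rose and 13 fell in HOS (median -0.20). SLIRP, which with LRPPRC stabilises mitochondrial messenger RNA, rose in 143B from a mean of 246.6 to 987 FPKM (log2 1.998, limma adjusted p = 0.0015). In HOS it fell from 618.5 to 340.1 FPKM (log2 -0.86, limma adjusted p = 2.3e-07). ELAC2, which cuts the 3′ end of mitochondrial tRNAs, fell in 143B (log2 -1.80), as did FASTKD3 (log2 -1.50, a call lost without sgNAT10 replicate 1, limma adjusted p = 0.22). TRMT10C, a subunit of mitochondrial RNase P, fell in HOS (log2 -0.79), and the replicative helicase TWNK rose (log2 0.83). The call of TRMT10C was lost with the spread shared by all 8 libraries (limma adjusted p = 0.070). FASTKD3 averaged 5.21 FPKM in the 143B controls and 1.11 FPKM under the label, close to the filter at 1 FPKM.

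For the modification of mitochondrial ribosomal RNA and assembly of its ribosome, 2 of 25 genes rose and 3 fell in 143B (median -0.10), and 9 rose and 6 fell in HOS (median 0.04). MRM2, which methylates the 16S ribosomal RNA itself, fell in 143B from a mean of 25.7 to 10.8 FPKM (log2 -1.17, limma adjusted p = 0.013). That call was lost without sgNAT10 replicate 1 (0.086) and without sgNAT10 replicate 2 (0.062). The assembly GTPase NOA1 fell (log2 -1.57; limma adjusted p = 0.084 without sgNAT10 replicate 1) and YBEY rose (log2 1.42; 0.16 without sgNAT10 replicate 1 and 0.060 without sgNAT10 replicate 2). In HOS the ribosomal RNA methyltransferases NSUN4 (log2 0.80) and MRM1 (log2 0.67) rose, and MTERF4, the partner of NSUN4, fell (log2 -0.64). With the shared spread MRM1 (limma adjusted p = 0.061) and MTERF4 (0.16) no longer passed.

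Of the humanin receptors and binding partners, 0 of 8 rose and 2 fell in 143B (median -0.41), and 5 of 7 rose and 0 fell in HOS (median 0.38). All tested genes leaned the same way, with 12.9% higher and 25.4% lower in 143B and 45.5% and 23.0% in HOS. CNTFR, a subunit of the humanin receptor, fell in 143B from a mean of 2.50 to 0.32 FPKM (log2 -1.40, limma adjusted p = 0.0027), having passed the filter on low values through its controls alone. TRIM11, a ubiquitin ligase reported to bind humanin, fell in 143B (log2 -0.85, limma adjusted p = 0.039) and rose in HOS (log2 0.88). In 143B TRIM11 no longer passed under median-ratio scaling (limma adjusted p = 0.20), nor with NC replicate 1 (0.11), sgNAT10 replicate 1 (0.16) or sgNAT10 replicate 2 (0.26) left out. BCL2L11, the cell death protein BIM, rose in HOS (log2 0.99), as did IL27RA (log2 0.46; limma adjusted p = 0.13 under quantile normalization and 0.15 with the shared spread).

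For mitochondrial mass and biogenesis, 2 of 24 genes rose and 4 fell in 143B (median 0.00), and 8 rose and 10 fell in HOS (median -0.02). The summed level of this list was 2733 to 2739 FPKM in the 143B controls and 2825 to 3085 FPKM under the label. In HOS it was 2625 to 2660 FPKM in the controls and 2316 to 2363 FPKM under the label. CS, citrate synthase, fell in 143B (log2 -1.25), as did the receptor ESRRA (log2 -1.60), while the chaperonin HSPE1 rose (log2 1.14; limma adjusted p = 0.052 without sgNAT10 replicate 2). In HOS ESRRA rose (log2 0.67), as did the coactivators PPRC1 (log2 0.999) and PPARGC1B (log2 0.85), which passed the filter through its labelled libraries alone.

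Of the mitophagy genes, 1 of 17 rose and 5 fell in 143B (median -0.58), and 4 of 16 rose and 7 fell in HOS (median -0.06). NIPSNAP1 (log2 -1.28), the autophagy kinase ULK1 (log2 -1.63; limma adjusted p = 0.071 without sgNAT10 replicate 2) and GABARAPL1 (log2 -1.57) fell in 143B, of which ULK1 and GABARAPL1 passed the filter through their controls alone. In HOS the mitophagy kinase PINK1 rose from a mean of 17.6 to 37.0 FPKM (log2 1.04), MAP1LC3B rose (log2 0.80), and the mitophagy receptor FUNDC1 fell (log2 -0.64). With the shared spread MAP1LC3B (limma adjusted p = 0.12) and FUNDC1 (0.086) no longer passed.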

How the data were processed

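The authors deposited FPKM values, a table for each line and a column for each library, per the file headers. Bowtie2, RSEM and DESeq2 appear in the submitters' processing notes without role or version, beside the build GRCh38. Listed genes exceed 0.5 FPKM in at least 2 libraries. FPKM are not counts, so log2(FPKM + 1) was tested with limma 3.58.1 in R 4.3.3 (intensity trend, two-sided, Benjamini-Hochberg over all tested genes), keeping genes that reached 1 FPKM in 2 or more of a line's 4 libraries. That left 11419 genes in 143B and 11957 in HOS, with 2 libraries against 2. The fitting script was also tested on simulated data, which does not bear on single calls. The members and lists were chosen with earlier results of these data known. Every member is named. Neighbours are the nearest listed genes among the 97.9% (143B) and 98.0% (HOS) of listed genes that GENCODE 29 places. A neighbouring gene is not reported here. Like genes are the 5 with the highest correlation to the mean profile, and list genes the 3 largest called changes per line. Sequences were aligned locally with Biopython 1.88 (match 2, mismatch -3, gap opening -5, extension -2). Alternatives covered pseudocount, filter, scaling, moderation, block, shared spread and each library left out. A common sum without MTRNR2L genes and a crossed block were added after seeing the data.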

Additional observations from a re-analysis of the deposited data

Results flagged for a closer look

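For 6 members every library labelled sgNAT10 lay above the controls in 143B and below them in HOS. The log2 change in 143B minus that in HOS was 6.02 for MTRNR2L1, 5.91 for MTRNR2L2, 7.27 for MTRNR2L3, 5.57 for MTRNR2L6, 6.05 for MTRNR2L8 and 4.64 for MTRNR2L9. In 143B, MTRNR2L2 (limma adjusted p = 0.092) and MTRNR2L9 (0.42) did not pass the test. MTRNR2L9 kept its sign there in 13 of 16 alternatives. The HOS contrast chose these genes, so the difference was not tested. MTRNR2L10, below the controls in both lines, is the member without such a difference in direction.

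Among other genes named here, those below differed between lines in a joint limma fit (adjusted p below 0.05). Values are 143B minus HOS on the log2 scale. List genes and markers were named for their called changes in these same libraries, so their passing is a description and carries no support. No share over all jointly fitted genes is given beside it. The difference was 2.22 for the copy MTRNR2L4 and -1.41 for NAT10. Among the neighbours of the members it was -2.21 for AMPD3, -2.11 for RBM38, -2.02 for RAE1, -1.59 for BMP7 and -1.43 for C17orf51. It was 1.68 for FAM104B, 1.33 for WSB1, 1.21 for FAM151B, 1.11 for RNF141 and 1.02 for SSBP1. Among mitochondrial RNA and ribosome genes it was 2.86 for SLIRP, 1.79 for YBEY, 1.08 for TRMT10C, -1.11 for MRM2, -1.91 for ELAC2 and -2.15 for NOA1. For the humanin partners it was -1.73 for TRIM11 and -1.21 for IL27RA. In the mass and mitophagy lists it was 1.77 for HSPE1, -0.98 for NIPSNAP1, -1.06 for PPARGC1B, -1.51 for GABARAPL1, -1.73 for CS, -1.77 for PINK1, -1.99 for PPRC1, -2.25 for ULK1 and -2.28 for ESRRA. Among markers it was -1.32 for CD68, -1.54 for CD14, -1.60 for VIM, -2.05 for ALPL and -3.88 for SPP1. The difference did not pass for MAGEH1, MSH3, PRIM2, PTP4A1, GSTK1, FASTKD3, TWNK, NSUN4, MRM1, MTERF4, BCL2L11, FUNDC1 or MAP1LC3B. On low values, FAM151B passed the filter through its labelled libraries alone in 143B and its controls alone in HOS. MTRNR2L4 in HOS, and CD14, ALPL, AMPD3, ULK1 and GABARAPL1 in 143B, passed through their controls alone. PPARGC1B in HOS passed through its labelled libraries alone. The filter thus favours these differences.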

How the results depend on the processing

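The 7 HOS falls kept their sign in all 17 alternatives, and in 143B 6 members kept theirs in all 16, MTRNR2L9 doing so in 13. The causes of the moves below were not tested. The median of the members was 0.91 on a common sum, 0.92 on one without MTRNR2L genes, 1.53 under median-ratio scaling, 0.81 under quantile normalization and 0.97 to 1.501 with a library left out in 143B. In HOS it was -4.47 with a pseudocount of 5 and on a common sum, -4.50 on one without MTRNR2L genes, -4.91 by median ratio, -4.49 by quantiles and -4.72 to -4.64 with a library left out. In 143B, MTRNR2L2 was called higher with the replicate block and with the shared spread, 1 member (MTRNR2L10) was called lower on either common sum, with the replicate block and with the spread shared by all 8 libraries, and 3 to 5 were called higher with a library left out. The share ratio was 1.21 to 1.93 in 143B and 23.4 to 25.96 in HOS with a library left out, and 27.2 in HOS without ribosomal protein genes.

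Same-numbered libraries correlated at 0.605 in 143B and -0.106 in HOS in their deviations, but share only a number. With the replicate block in 143B, 2737 genes were called higher and 4915 lower, 23 and 41 among list genes and 8 and 7 among neighbours, and in HOS 5267 and 2614, beside 5592 and 2866 with the numbers crossed. Without the block these were 1473 and 2897 in 143B and 5444 and 2751 in HOS. In 143B, genes called higher numbered 919 with a filter at 5 FPKM, 896 and 895 on the common sums, 2361 by median ratio, 2795 by quantiles, and 653 to 2098 with a library left out, when 1342 to 3703 were lower. In HOS, genes called lower numbered 1703 and 1815 on the common sums and 1881 to 3056 with a library left out, and 1562 were higher and 302 lower with the shared spread. List genes called higher in 143B numbered 4 on either common sum, 17 by median ratio, 22 by quantiles, 11 with the shared spread and 3 to 14 with a library left out, when 8 to 25 were lower. In HOS they were 51 higher on a common sum, 19 and 20 lower on the common sums, and 10 and 2 with the shared spread. Neighbours called higher in 143B numbered 1 on either common sum, 7 by median ratio, 8 by quantiles, 6 with the shared spread and 0 to 5 with a library left out, when 2 to 5 were lower. In HOS 2 were lower on a common sum and 8 by median ratio, 3 were higher and 0 lower with the shared spread, and 3 to 6 were lower with a library left out. Without depth, no counting error can be given.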
